A study of Rattus norvegicus with 12 samples.

Results

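The genes described here load, release and move calcium in heart muscle cells, carry a fast potassium current, or join neighbouring cells electrically. They are Pln, Atp2a2, Ryr2, Casq2, Slc8a1, Cacna1c, Gja1, Kcnd2 and Kcnd3. They were chosen by symbol, and each gene was read from the probe set of highest mean signal among those annotated to its symbol alone, with its other probe sets kept as a check. The 9 genes stood among 14217 named genes of the array and held 24 of its 31042 probe sets that are not controls. All 9 brightest probe sets passed the filter on low signal, as did 22 of the 24. The exceptions were the third Gja1 set, with a mean signal of 0.257, and the third Kcnd3 set, with 0.490.

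RNA was taken from cultured heart muscle cells of Wistar rat ventricles, dissociated at 1 day of age and separated from fibroblasts by how fast cells attach. The cells were kept in a reduced-serum medium for 24 h and exposed for 3 h to cortivazol (CVZ), corticosterone (COR), aldosterone (ALD) or the ethanol vehicle. CVZ is a synthetic glucocorticoid with a phenylpyrazole ring system, COR is the main natural glucocorticoid of the rat, and ALD, which carries an aldehyde that COR lacks, is the natural mineralocorticoid. In 4 further groups, called CVZ+RU, COR+RU, ALD+RU and RU, the cells first received RU486, which blocks the glucocorticoid receptor, at 10 µM. The 4 RU486 groups had 1 array each, all in the second of 2 experiments, while CVZ, COR, ALD and vehicle had 1 array in each experiment (n = 2). This gave 12 arrays. No dose of a ligand is given in the labels, and a ligand difference cannot be told apart from one of dose. No label says whether the experiments were separate cell preparations, so p-values cover array-to-array spread, which may be technical.

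In the heartbeat, calcium entering through the L-type channel (Cacna1c) opens the ryanodine receptor (Ryr2) of the sarcoplasmic reticulum, where calsequestrin (Casq2) buffers the stored calcium. The pump SERCA2 (Atp2a2), held back by phospholamban (Pln), refills the store, and the sodium-calcium exchanger (Slc8a1) removes calcium from the cell. Kv4.2 (Kcnd2) and Kv4.3 (Kcnd3) carry the transient outward current that starts repolarisation, and connexin 43 (Gja1) forms the gap junctions of ventricular muscle. Glucocorticoids act through a nuclear receptor that can bind DNA itself or act at sites of other factors such as AP-1.

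Gja1 was the one of these genes called with a ligand, so the start of its gene is shown. All 9 genes had an entry in the RefSeq promoter table of build GRCr8. The stretch at chr20:36302314-36302519, on the plus strand, ends 30 bases past the outermost annotated start of Gja1 at position 36302490. Capitals mark the letters TGAGTCA, a match to the AP-1 pattern TGANTCA. They lie past that outermost start, inside the annotated gene. The start used for the search was further in, at position 36302564, and the letters stand 58 to 52 bases before it.
Gja1: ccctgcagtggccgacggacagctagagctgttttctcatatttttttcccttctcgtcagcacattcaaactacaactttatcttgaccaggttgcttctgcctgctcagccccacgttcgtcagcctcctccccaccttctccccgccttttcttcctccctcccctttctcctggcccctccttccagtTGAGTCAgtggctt
The search covered the 250 bases before each start in the table, on both strands. TGANTCA stood in 6.34% of 33469 such promoters and, of the 9 genes, in that of Gja1. The glucocorticoid receptor half-site AGAACA stood in 17.5% of the promoters and in 0 of the 9, and the full palindromic element, that half-site and its reverse complement with 3 bases between them, stood in 4 of the 33469 and in 0 of the 9. Any full element also counts as a half-site. A match is a description of letters, not of a bound site, and the absence of one concerns only this window.

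Signals are intensities relative to the median of their own array, and differences are log2 differences of signal plus 0.0696, fitted by limma with the experiment as a block and given with the standard error. A call means an adjusted p below 0.05 over all 18625 probe sets tested. The array medians before division lay between 21.1 and 37.7, with the 4 RU486 arrays at the top (35.4 to 37.7), followed by ALD of the second experiment (33.7). The cardiomyocyte markers Tnnt2 (lowest array 235) and Myh6 (lowest array 268) were high on every array. Fibroblast genes were present too, with a summed signal of 11 markers of 182 to 209 in the second and 382 to 467 in the first experiment. The Schwann cell marker Sox10 lay between 0.0297 and 0.369, below the filter. Of the 7 Schwann and neuronal markers on the array, 5 were below the filter and 2 passed it. The 7 summed to 1.65 to 3.82 in the second and 1.67 to 3.10 in the first experiment. As a check that the ligands acted, Fkbp5, a co-chaperone gene induced by the glucocorticoid receptor, had signals of 43.8 and 43.5 with CVZ against 2.17 and 1.52 with vehicle.

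**Figure D1:**
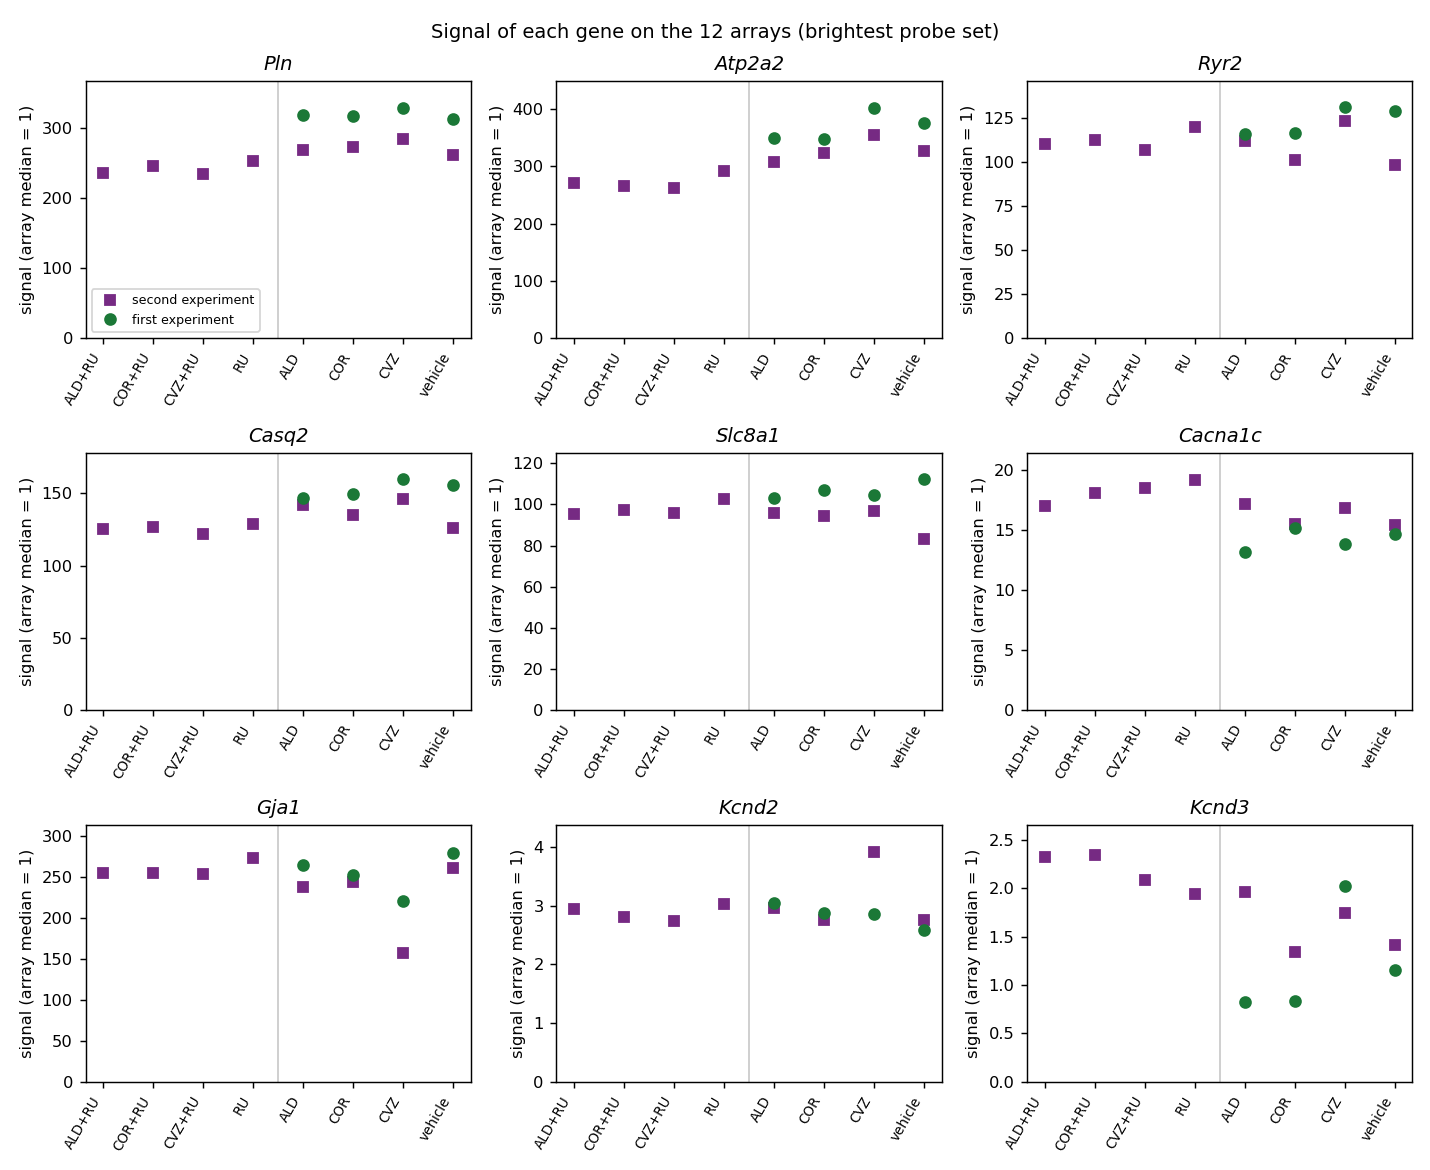
Signal of each of the 9 genes (brightest probe set, linear axis from 0, array median = 1) on the 12 arrays, by group along the x axis, with squares for the second and circles for the first experiment. The CVZ points of Gja1, at 157 and 220, lie below every other array of their experiment, and the RU486 arrays of Atp2a2, at 261 to 292, lie below the other 8 at 308 to 402.

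The first comparison asked how each ligand changed gene expression within 3 h. With CVZ, 1 of the 9 genes was called, Gja1, which fell. The background was 7.96% of tested probe sets called and 3.19% called lower. With COR, 0 of the 9 were called against a background of 3.39%, and with ALD 0 of the 9 against 0.950%. At an unadjusted p below 0.05 the counts were 1 with CVZ (background 18.2%), 0 with COR (13.1%) and 0 with ALD (9.15%). Over the 9 genes the median log2 difference was 0.10 with CVZ, 0.02 with COR and 0.02 with ALD, beside 0.01, 0.01 and 0.02 over all probe sets tested.

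Gja1, the gap junction gene, had a signal of 253 (CVZ+RU), 255 (COR+RU), 255 (ALD+RU) and 273 (RU) with RU486 in the second experiment, against 157 (CVZ), 243 (COR), 237 (ALD) and 261 (vehicle) without it. In the first experiment its signal was 220 (CVZ), 251 (COR), 264 (ALD) and 279 (vehicle). Each CVZ array was the lowest of its experiment, and the CVZ and vehicle arrays did not overlap. The CVZ mean was 188 ± 45.1 and the vehicle mean 270 ± 12.8 (SD, n = 2 each). The fitted difference was log2 −0.54 ± 0.087 (95% interval −0.72 to −0.35, adjusted p = 0.000617), which is 1.45-fold lower with CVZ. The fall was −0.74 within the second experiment and −0.34 within the first. Without the CVZ array of the second experiment the fitted value was −0.34 (adjusted p = 0.0455), and without the block (adjusted p = 0.424) or the mean-variance trend (adjusted p = 0.163) the call was lost.

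A second Gja1 probe set, of lower signal, gave a larger response. Its signal in the second experiment was 18.3 (CVZ+RU), 22.5 (COR+RU), 19.3 (ALD+RU) and 20.0 (RU) with RU486, against 7.74 (CVZ), 10.5 (COR), 13.7 (ALD) and 17.4 (vehicle) without it. In the first experiment it was 11.2 (CVZ), 18.3 (COR), 21.1 (ALD) and 29.6 (vehicle). In both experiments the order from low to high was CVZ, COR, ALD, vehicle. Here the fitted difference from vehicle was −1.28 ± 0.106 with CVZ (adjusted p = 5.49e-07), 2.43-fold lower, and −0.71 ± 0.106 with COR (adjusted p = 0.000649). With ALD it was −0.42 ± 0.106 (adjusted p = 0.0944), which was not called. The within-experiment values of the second and the first experiment were −1.16 and −1.40 with CVZ, −0.72 and −0.69 with COR, and −0.34 and −0.49 with ALD. The brighter probe set gave −0.12 with COR (95% interval −0.31 to 0.06, adjusted p = 0.636) and −0.11 with ALD (−0.29 to 0.08, adjusted p = 0.797), so for COR the 2 probe sets differ in the call. They correlated at r = 0.85 over the 12 arrays after removal of the experiment mean, a description of values that share arrays. The CVZ call of the dimmer set held in 14 of 15 alternative settings and its COR call in 13 of 15. Both were lost without the block (adjusted p = 0.298 with CVZ), and the ALD difference was called under the other 2 scalings (lowest adjusted p 0.0198). The mean of the 3 ligands gave −0.26 (adjusted p = 0.0482) for the brighter and −0.80 (adjusted p = 1.55e-05) for the dimmer set, and Gja1 was the 1 of 9 genes called there, against a background of 5.44% called and 1.72% called lower. The call of the brighter set in that comparison was lost when either vehicle array (−0.32 without that of the first and −0.19 without that of the second experiment), the COR (−0.22) or ALD array (−0.25) of the first experiment or the CVZ array of the second (−0.19) was left out.

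The markers of cell types stood as follows beside the CVZ fall of Gja1. The fibroblast sum was 209 and 462 on the CVZ arrays of the second and the first experiment, against 200 and 467 on the vehicle arrays, and 1 of 11 fibroblast markers was called (Tcf21, higher by 0.95). The cardiomyocyte sum was 3206 and 3165 on the CVZ arrays, against 2902 and 3077 on the vehicle arrays, and 2 of 16 cardiomyocyte markers were called (Myh7 and Tcap), both higher. Kdr was the 1 of 7 tested endothelial markers called and Mrc1 the 1 of 8 tested macrophage markers, both higher with CVZ. The endothelial sum was 22.4 and 30.5 on the CVZ arrays, against 10.6 and 19.2 on the vehicle arrays. The median difference of the 7 was 0.60, beside 0.01 over all probe sets. The macrophage sum was 19.1 and 25.4, against 18.6 and 23.3. The smooth muscle sum was 121 and 130, against 109 and 128, with 0 of 9 called. The background was 7.96% called and 4.77% called higher. The part of these markers in the Gja1 result was not tested. In RNA of a whole culture, fewer cells of a type and less RNA per cell cannot be told apart.

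**Figure D2:**
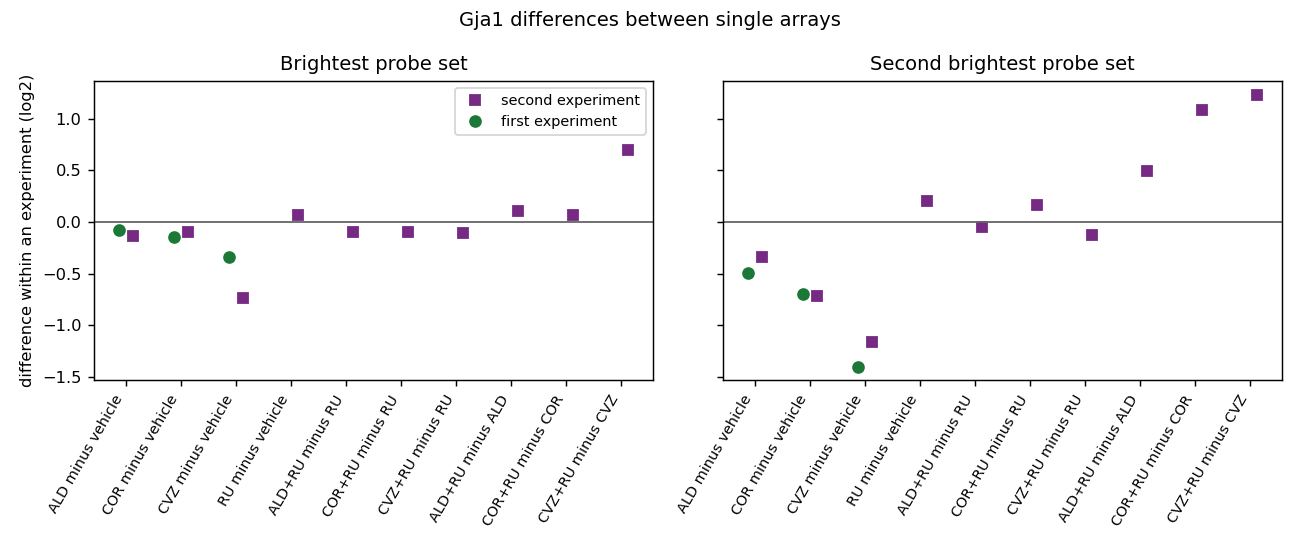
Log2 differences of Gja1 between single arrays of the same experiment for the brightest (left) and second brightest (right) probe set, with squares for the second and circles for the first experiment and each pair of arrays named along the x axis. CVZ minus vehicle lies at −0.74 and −0.34 on the left and at −1.16 and −1.40 on the right, while the 3 ligands on top of RU486 lie between −0.13 and 0.17.

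Between the ligands, 3 pairs were compared. Gja1 was called in COR against CVZ (0.41 ± 0.087, 95% interval 0.23 to 0.60, adjusted p = 0.0323) and in ALD against CVZ (0.43 ± 0.087, 0.25 to 0.62, adjusted p = 0.00749), higher in both. It was the 1 of 9 genes called in each, against backgrounds of 0.966% for COR and 4.25% for ALD, with 0.311% and 1.63% called higher. ALD against COR gave 0.02 (−0.17 to 0.20, adjusted p = 1) with 0 of 9 genes called and a background of 0.295%, and 0 of 9 at an unadjusted p below 0.05, where the background was 6.2%. That interval still holds differences of up to 0.20, so it does not show that ALD and COR act alike. The dimmer Gja1 set gave 0.57 for COR against CVZ (adjusted p = 0.0153), 0.86 for ALD against CVZ (adjusted p = 0.000114) and 0.29 for ALD against COR (adjusted p = 0.565). Its COR against CVZ call was lost without the CVZ array of the first or the COR array of either experiment. Over all 15 alternative settings that value lay between 0.47 and 0.67. For the brighter set the COR against CVZ call was lost without the COR array of either experiment (0.51 without that of the first and 0.31 without that of the second) or the CVZ array of the second (0.22, adjusted p = 0.587). Its ALD against CVZ call was lost without the CVZ array of the second experiment (0.23, adjusted p = 0.312) or the ALD array of that experiment (0.40, adjusted p = 0.0667).

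The RU486 groups show how these values stood when the receptor blocker was present. Whether the ligand differences need the glucocorticoid receptor was not tested, and each RU486 group was 1 array of 1 experiment. On the CVZ background Gja1 was higher with RU486 by 0.55 ± 0.111 (95% interval 0.31 to 0.78, adjusted p = 0.0072), and its CVZ+RU signal of 253 stood beside 261 on the vehicle array of the same experiment. Within that experiment the RU486 difference of Gja1 was 0.69 with CVZ, 0.07 with COR, 0.10 with ALD and 0.07 without ligand, higher in 4 of 4 pairs of arrays. For the dimmer set these values were 1.23 with CVZ, 1.09 with COR, 0.49 with ALD and 0.20 without ligand. Averaged over the 4 backgrounds the fitted value was 0.23 ± 0.062 (adjusted p = 0.0471) for the brighter and 0.75 ± 0.075 (adjusted p = 2.88e-05) for the dimmer set. Without the CVZ array of the second experiment the brighter set gave 0.30 on the CVZ background (adjusted p = 0.307) and 0.13 over the 4 backgrounds (adjusted p = 0.358), and without the ALD array of that experiment its value over the 4 was 0.25 (adjusted p = 0.0619), so those calls were lost. The call of the brighter set over the 4 backgrounds held in 8 of 15 settings, and that of the dimmer set in 13 of 15. These RU486 values use the same CVZ arrays as the CVZ fall of Gja1. So do COR and ALD against CVZ, and the difference of CVZ responses given below. Their calls are therefore not independent of that fall.

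With RU486 present the ligands were tested against RU as a mean of 3, and single ligands were not tested there. The mean of CVZ+RU, COR+RU and ALD+RU differed from RU by −0.10 (95% interval −0.32 to 0.11, adjusted p = 1) for the brighter and by −0.00 (−0.26 to 0.26, adjusted p = 1) for the dimmer set. In limma's test of that comparison 0 of 9 genes and 0 of 18625 probe sets were called (0%), and 462 probe sets (2.48%), none of the 9, had an unadjusted p below 0.05. The CVZ response with RU486 minus that without it was 0.43 ± 0.15 for the brighter set (adjusted p = 0.241) and 1.15 ± 0.18 for the dimmer one (adjusted p = 0.00179). By the brightest probe set 0 of 9 genes were called there against a background of 2.44%, and 3 had an unadjusted p below 0.05 (background 10.1%). Without the CVZ array of the first experiment the brighter set gave 0.63 and was called (adjusted p = 0.0286). RU alone against vehicle called 0 of 9 genes against a background of 0.129%, with 1 of 9, Atp2a2, at an unadjusted p below 0.05 (background 6.75%), and gave 0.12 for Gja1 (adjusted p = 0.925).

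The calcium store genes were next. Atp2a2, the store's pump, had a signal of 261 (CVZ+RU), 265 (COR+RU), 271 (ALD+RU) and 292 (RU) with RU486, against 354 (CVZ), 324 (COR), 308 (ALD) and 328 (vehicle) without it in the second experiment. The first experiment gave 402 (CVZ), 349 (COR), 350 (ALD) and 377 (vehicle). All 4 RU486 arrays were lower than all 8 others, and CVZ was the highest of both experiments. The fitted RU486 difference over the 4 backgrounds was −0.27 ± 0.042 (95% interval −0.36 to −0.18, adjusted p = 0.00139). That call held whichever 1 of the 8 arrays without RU486 was left out. The lone RU486 arrays were not left out. That difference lost its call without the filter (adjusted p = 0.0542), the block (0.330) or the mean-variance trend, and under quantile normalization. On the CVZ background it was −0.44 ± 0.076 (adjusted p = 0.00188), and without the CVZ array of the second experiment −0.46 (adjusted p = 0.0515). Against vehicle Atp2a2 differed by 0.10 with CVZ (−0.02 to 0.23, adjusted p = 0.401), by −0.06 with COR and by −0.10 with ALD, none of them called. Its ALD against CVZ difference of −0.20 had an adjusted p of 0.0801, and was called without the vehicle array of either experiment (adjusted p = 0.0327 without that of the first and 0.0313 without that of the second).

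Pln, the brake on the pump, had a signal of 233 (CVZ+RU), 246 (COR+RU), 235 (ALD+RU) and 253 (RU) with RU486, against 284 (CVZ), 273 (COR), 269 (ALD) and 261 (vehicle) without it. In the first experiment it was 329 (CVZ), 317 (COR), 318 (ALD) and 313 (vehicle). Like Atp2a2, Pln was lower on the 4 RU486 arrays than on all others, although RU and vehicle of the second experiment lay close together. The RU486 difference over the 4 backgrounds was −0.17 ± 0.042 (−0.26 to −0.08, adjusted p = 0.0355), and on the CVZ background −0.27 ± 0.076 (adjusted p = 0.055), not called. The call over the 4 backgrounds was lost without the CVZ array of the first experiment (adjusted p = 0.0909), or the CVZ (0.231), COR (0.135) or ALD (0.0819) array of the second, with values of −0.16 to −0.17. The ligand differences from vehicle were 0.10 with CVZ, 0.04 with COR and 0.03 with ALD, none called (lowest adjusted p of the 3, with CVZ, 0.443).

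These RU486 differences stood among many of like size. Of the 9 genes, 3 were called over the 4 backgrounds (Pln and Atp2a2 lower, Gja1 higher) against 4.02% of all tested probe sets, 2.16% lower and 1.85% higher. On the CVZ background 2 were called (Atp2a2 lower, Gja1 higher) against 4.68%, 3.11% lower and 1.57% higher. But of the 52 tested probe sets with a mean signal of at least 200, 98.1% were lower with RU486, with a median of −0.19 (quartiles −0.25 and −0.14), and 32 were called lower. The value of Pln lies inside those quartiles and that of Atp2a2 just below them. The summed signal of 16 cardiomyocyte markers was 2575 to 2855 on the RU486 arrays and 2902 to 3206 on the others of that experiment, with 5 markers called lower and 0 higher. Under quantile normalization, which gives every array the same distribution, Atp2a2 gave −0.04 (adjusted p = 0.609) and Pln 0.00 (adjusted p = 0.968). Gja1, of like signal, went the other way under both scalings and was the 1 of the 33 calls in that band that was higher. With CVZ the same 52 probe sets had a median of 0.07, and of the 3 called, Gja1 was the 1 that fell. The other Atp2a2 probe sets gave RU486 differences of −0.03, −0.20, −0.12 and −0.05, none called, and the other Pln sets gave −0.11 and 0.26, none called.

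**Figure D3:**
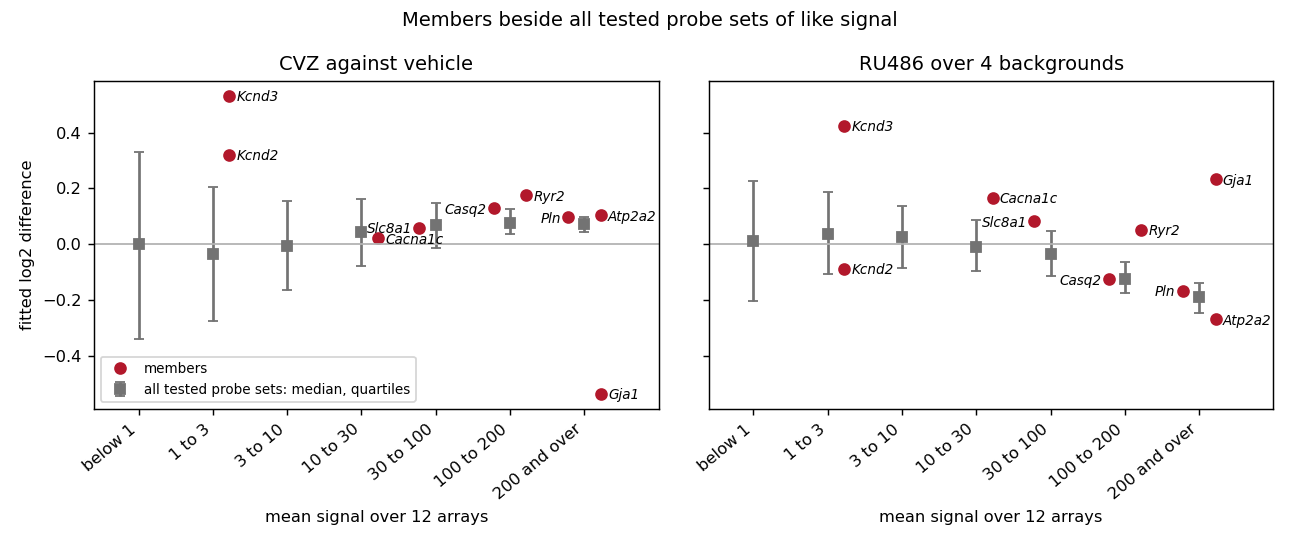
Fitted log2 difference of each gene (red points) beside the median and quartiles of all tested probe sets (grey) in 7 bands of mean signal along the x axis, for CVZ against vehicle (left) and RU486 over 4 backgrounds (right). On the right the grey median falls to −0.13 at 100 to 200 and −0.19 at 200 and over, near Casq2 (−0.13) and Pln (−0.17), while Gja1 lies at 0.23.

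Ryr2, the release channel, had a signal of 107 (CVZ+RU), 113 (COR+RU), 110 (ALD+RU) and 120 (RU) with RU486, against 124 (CVZ), 102 (COR), 112 (ALD) and 98.5 (vehicle) without it. The first experiment gave 131 (CVZ), 117 (COR), 116 (ALD) and 129 (vehicle). CVZ was the highest array of each experiment, by little in the first. The fitted CVZ difference was 0.18 ± 0.082 (95% interval −0.00 to 0.35, adjusted p = 0.275), not called, with 0.33 within the second and 0.02 within the first experiment. Leaving out the vehicle array of the first experiment gave 0.31 and a call (adjusted p = 0.0318), which made 2 of 9 genes called with CVZ. RU486 over the 4 backgrounds gave 0.05 (adjusted p = 0.751). The other Ryr2 probe set, with a mean signal of 33.2, did not follow the brighter one (r = 0.07 over the 12 arrays after removal of the experiment mean). It gave 0.02 with CVZ (−0.16 to 0.20, adjusted p = 0.942), and with RU486 it was lower in 4 of 4 pairs of arrays (−0.36 with CVZ, −0.30 with COR, −0.14 with ALD and −0.00 without ligand), at −0.20 over the 4 backgrounds (−0.33 to −0.07, adjusted p = 0.0794), not called.

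Casq2, the calcium buffer of the store, ranged over the 12 arrays from 122 to 160 with a median of 139. Its signals in the second experiment were 122 to 129 on the 4 RU486 arrays, against 126 (vehicle) to 146 (CVZ) without RU486, so the groups overlapped at vehicle. The RU486 difference of −0.13 ± 0.052 (adjusted p = 0.241) and the CVZ difference of 0.13 ± 0.074 (adjusted p = 0.402) were not called. In both, this brightest set lay near probe sets of like signal, since the 197 sets between 100 and 200 had medians of −0.13 with RU486 and 0.08 with CVZ. The other Casq2 set, of mean signal 114 in the same band, went the opposite way with RU486, higher in 3 of 4 pairs of arrays and at 0.16 (0.04 to 0.27, adjusted p = 0.153) over the 4 backgrounds. With CVZ it gave 0.16 (adjusted p = 0.313), and the 2 sets correlated at r = −0.08, so the RU486 direction of Casq2 depends on the probe set.

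At the cell surface, Slc8a1, the exchanger, ranged from 83.3 to 112 with a median of 97.1. The lowest array was vehicle of the second and the highest vehicle of the first experiment, so the vehicle pair spanned the whole range. No ligand moved it past the threshold, with differences from vehicle of 0.06 with CVZ, 0.06 with COR and 0.04 with ALD and intervals reaching from −0.14 to 0.24. RU486 gave 0.08 (adjusted p = 0.569). The other Slc8a1 set, with a mean signal of 6.06, gave 0.30 with CVZ (adjusted p = 0.31) and −0.01 with RU486 (adjusted p = 0.979). Cacna1c, the pore of the L-type channel, had a signal of 18.5 (CVZ+RU), 18.1 (COR+RU), 17.1 (ALD+RU) and 19.2 (RU) with RU486, against 16.9 (CVZ), 15.5 (COR), 17.2 (ALD) and 15.4 (vehicle) without it. In the first experiment it was 13.8 (CVZ), 15.2 (COR), 13.2 (ALD) and 14.7 (vehicle). The RU486 arrays were the highest but for ALD+RU, which ALD exceeded. The RU486 difference of 0.17 ± 0.079 (95% interval −0.00 to 0.33, adjusted p = 0.319) was not called, and the ligand differences lay between 0.00 and 0.03. The other Cacna1c set, with a mean signal of 2.86, gave 0.44 with CVZ (0.06 to 0.82, adjusted p = 0.188) and 0.05 with RU486 (adjusted p = 0.918), neither called.

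The potassium channel genes had low signals. Kcnd2 had a signal of 2.74 (CVZ+RU), 2.81 (COR+RU), 2.95 (ALD+RU) and 3.03 (RU) with RU486, against 3.92 (CVZ), 2.76 (COR), 2.96 (ALD) and 2.76 (vehicle) without it. Values of the first experiment were 2.86 (CVZ), 2.87 (COR), 3.04 (ALD) and 2.59 (vehicle). The CVZ array of the second experiment stood above the other 11. The CVZ difference was 0.32 ± 0.188 (adjusted p = 0.411), from 0.50 within the second and 0.14 within the first experiment, and was not called. The other Kcnd2 set, with a mean signal of 2.24, gave 0.35 (adjusted p = 0.395). Kcnd3 ranged from 0.824 to 2.34, and its 3 lowest values were those of ALD (0.824), COR (0.835) and vehicle (1.16) in the first experiment, while CVZ was at 2.02 there. Its CVZ difference of 0.53 ± 0.299 (−0.11 to 1.17, adjusted p = 0.383) came from 0.29 within the second and 0.77 within the first experiment. A second tested Kcnd3 set of nearly the same mean signal (1.65, against 1.67) went the other way, at −0.28 within each experiment and in the fit (−0.78 to 0.22, adjusted p = 0.614). The 2 sets correlated at r = −0.39, so no direction of Kcnd3 with CVZ is given by these arrays. For the brighter set the intervals were the widest of the 9 genes, with a half-width of 0.64 for a ligand against vehicle, compared with 0.13 for Atp2a2, and RU486 gave 0.42 ± 0.212 (adjusted p = 0.35), against −0.07 (adjusted p = 0.896) by the second set.

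**Figure D4:**
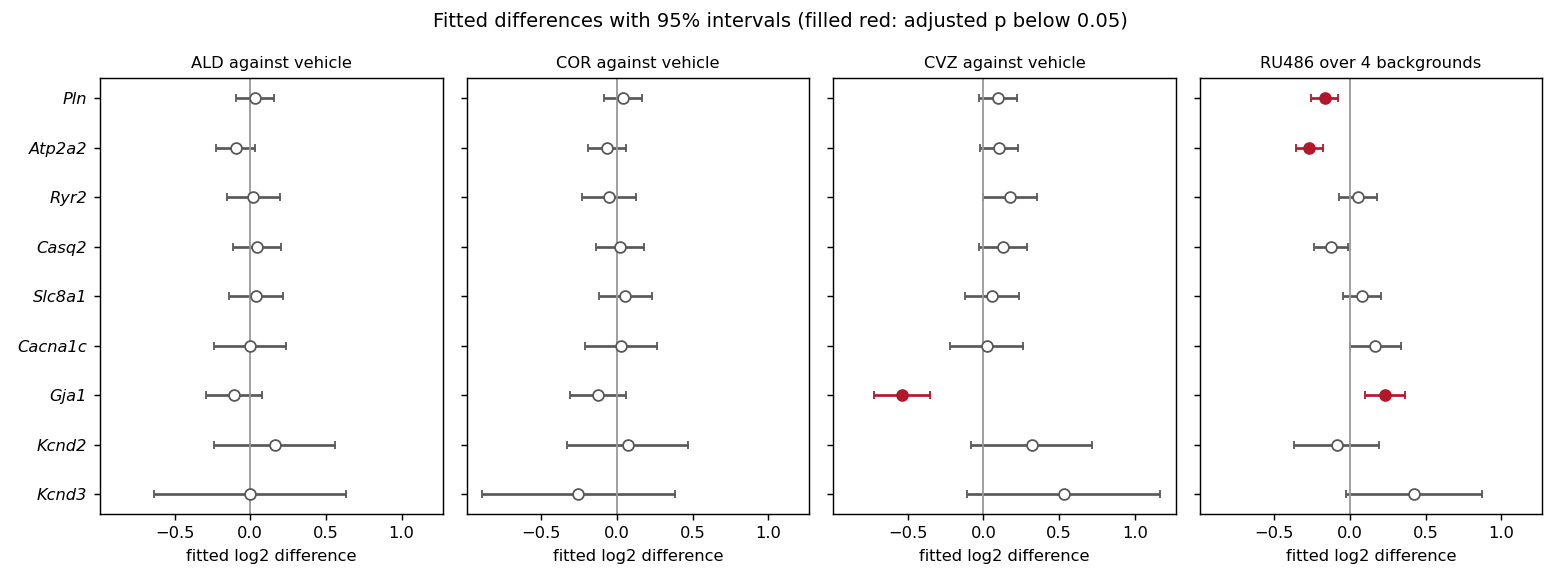
Fitted log2 differences (points) with 95% intervals (bars) of the 9 genes for ALD, COR and CVZ against vehicle and for RU486 over 4 backgrounds, with filled red points for an adjusted p below 0.05. Gja1 is red with CVZ at −0.54, and Pln (−0.17), Atp2a2 (−0.27) and Gja1 (0.23) are red with RU486.

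The experiments themselves differed. In the second against the first experiment 6 of the 9 genes were called, all lower, against a background of 38.9% called and 28.2% called lower. The differences were −0.23 for Pln (adjusted p = 0.000443), −0.21 for Slc8a1 (0.0101), −0.20 for Gja1 (0.0187), −0.18 for Ryr2 (0.0217), −0.17 for Atp2a2 (0.00513) and −0.16 for Casq2 (0.0258). The uncalled ones were Cacna1c (0.19), Kcnd2 (0.11) and Kcnd3 (0.47). These sizes compare with −0.20 as the median of the 52 sets with a signal of at least 200 and −0.26 for the 197 sets between 100 and 200. The median of all tested probe sets was −0.10, and trimmed-mean scaling moved it to 0.10. Under that scaling and under quantile normalization all 6 calls in this direction were lost. Of the 6 values, 4 turned round under trimmed-mean scaling (Atp2a2 to 0.04, Ryr2 to 0.02, Casq2 to 0.05 and Gja1 to 0.01). Casq2 (0.12) was called higher under quantile normalization, Kcnd3 (0.67) under trimmed-mean scaling, and Cacna1c under both (between 0.37 and 0.44). The call of Ryr2 was lost without either vehicle array (−0.11) or either COR array (−0.18), that of Casq2 without any vehicle (−0.11), CVZ (−0.17) or COR array (−0.16), and that of Gja1 without either CVZ array (−0.10). All 11 fibroblast markers were lower in the second experiment, with a median of −1.35, and their part in these differences was not tested. The dimmer Gja1 set was lower by more (−0.68, adjusted p = 4.47e-06), and this held in 14 of 14 settings. The next brightest sets of Pln, Casq2 and Slc8a1 were also called lower. For Atp2a2 the next brightest set was lower and not called. Its remaining sets were higher, by up to 0.76, with a lowest adjusted p of 0.000216. The dimmest Pln set was higher (0.048) and the other Ryr2 set lower, neither called. Other sets of Cacna1c and Kcnd2 were called higher.

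Further genes of the same pathways were counted in 4 lists, each by its brightest probe set alone. Their other probe sets were not checked. With CVZ, the other calcium cycling and transport genes had 2 of 33 called higher and 1 lower, and calcium channel subunits 0 of 8 higher and 3 lower. The potassium, sodium and pacemaker channels had 1 of 27 higher and 2 lower, and the connexins and intercalated disc genes 1 of 17 higher and 4 lower. The background was 4.77% higher and 3.19% lower. The list medians were 0.08, −0.37, −0.25 and −0.11 in that order, beside 0.01 over all probe sets. Rrad, a small GTPase that restrains the L-type channel, had 16.2 and 18.1 with CVZ in the second and the first experiment, against 29.6 and 44.1 with vehicle, and fell by 1.07 on the log2 scale (adjusted p = 1.01e-05). It was lower with COR too (−0.57, adjusted p = 0.00829), a call lost without the vehicle or COR array of the first experiment. Over the arrays left out the COR value of Rrad lay between −0.81 and −0.33. Cacnb2, the channel's beta subunit, fell by 0.55 on the log2 scale with CVZ (adjusted p = 0.00358), a call lost without the CVZ array of the second experiment (between −0.59 and −0.51 over the arrays left out). Cacng6, a gamma subunit, fell by 0.99 (adjusted p = 0.00676), a call lost without the vehicle or CVZ array of the first experiment. With RU486 over the 4 backgrounds 2 of the 8 were higher, Rrad (0.44, adjusted p = 0.00494) and Cacnb2 (0.30, adjusted p = 0.0392, lost in 6 of 8 fits that left out 1 array), and 0 were lower. Over all tested probe sets 1.85% were called higher with RU486 and 2.16% lower. The fitted RU486 values on the CVZ background were 1.03 for Rrad and 0.71 for Cacnb2, against 0.0051 and −0.0028 without ligand. In the second experiment Rrad had 34.8 (COR+RU) against 23.8 (COR), and 31.8 (ALD+RU) against 30.9 (ALD). These RU486 averages use the same CVZ arrays as the CVZ falls. The RU486 counts of the other lists were 0 of 33 higher and 2 lower (Calm2 and Atp1b1) for calcium cycling and transport, 1 of 27 higher (Trpm7) and 0 lower for the other channels, and 2 of 17 higher (Pkp2 and Dsg2) and 0 lower for connexins and the disc.

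Calm2, which encodes calmodulin, had 104 and 155 with CVZ in the second and the first experiment, against 49.3 and 93.0 with vehicle, and rose by 0.91 (adjusted p = 2.24e-05). With RU486 over the 4 backgrounds it was lower (−0.56 ± 0.075, adjusted p = 0.000381). The other calls in its list with CVZ were Atp1b1, a subunit of the sodium pump (0.34, adjusted p = 0.0113, lost without either CVZ array or the second vehicle array), and Camk2a, a calcium-dependent kinase (−0.99, adjusted p = 0.0186, lost without either CVZ array or the first vehicle array, and between −1.38 and −0.59 over the arrays left out). Clcn3, a chloride-proton exchanger of inner membranes in the list of other channels, rose with all 3 ligands, by 1.01 with CVZ (adjusted p = 1.51e-05), 0.87 with COR (0.000178) and 0.64 with ALD (0.00862). The ALD call was lost without the vehicle array of the second experiment or either ALD array, and the ALD value lay between 0.51 and 0.77 over all arrays left out. Kcna4, a slower transient outward channel, had 0.263 and 0.422 with CVZ, against 1.73 and 1.01 with vehicle, at −1.79 (adjusted p = 0.0297), and −2.13 with COR (adjusted p = 0.0184). Its COR signals were 0.362 and 0.165 in the second and the first experiment. The CVZ and COR signals all lie below the level of the filter, so both sizes depend on the pseudocount. The calls were lost without either vehicle array, the CVZ array of the second experiment or either COR array, and the CVZ value lay between −2.61 and −0.97 over the arrays left out. Scn4b, a beta subunit of the sodium channel, was lower with CVZ (−0.59, adjusted p = 0.016), a call lost without any CVZ or vehicle array.

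Around Gja1, several genes of the intercalated disc were lower with CVZ. Gja5 (connexin 40) had 11.6 and 23.2 with CVZ in the second and the first experiment, against 15.8 and 27.7 with vehicle (−0.35 ± 0.098, adjusted p = 0.0395). The call of Gja5 was kept in only 2 of 8 fits that left out 1 array. Jup (plakoglobin) had 16.7 and 16.2 with CVZ, against 25.4 and 24.0 with vehicle (−0.58 ± 0.096, adjusted p = 0.000728). Dsg2, a desmosomal cadherin, had 15.1 and 19.0 with CVZ against 21.3 and 26.3 with vehicle (−0.48, adjusted p = 0.00273). Both kept their call in 8 of 8 such fits, and neither overlapped with vehicle. Pkp2 (plakophilin) was also lower (−0.48, adjusted p = 0.00961, lost without the vehicle or CVZ array of the first experiment), while Dsc2, another desmosomal cadherin, was higher (0.67, adjusted p = 0.0189, lost without the second experiment's vehicle array or either CVZ array). With RU486 over the 4 backgrounds Pkp2 (0.37, adjusted p = 0.0101, lost without the COR array of the second experiment, with values of 0.29 to 0.43 over the arrays left out) and Dsg2 (0.35, adjusted p = 0.00583, kept in 8 of 8) were higher. Of the 14 list genes called with CVZ, 5 kept the call whichever 1 array without RU486 was left out (Calm2, Rrad, Clcn3, Jup and Dsg2). Without the block 0 kept it.

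**Figure D5:**
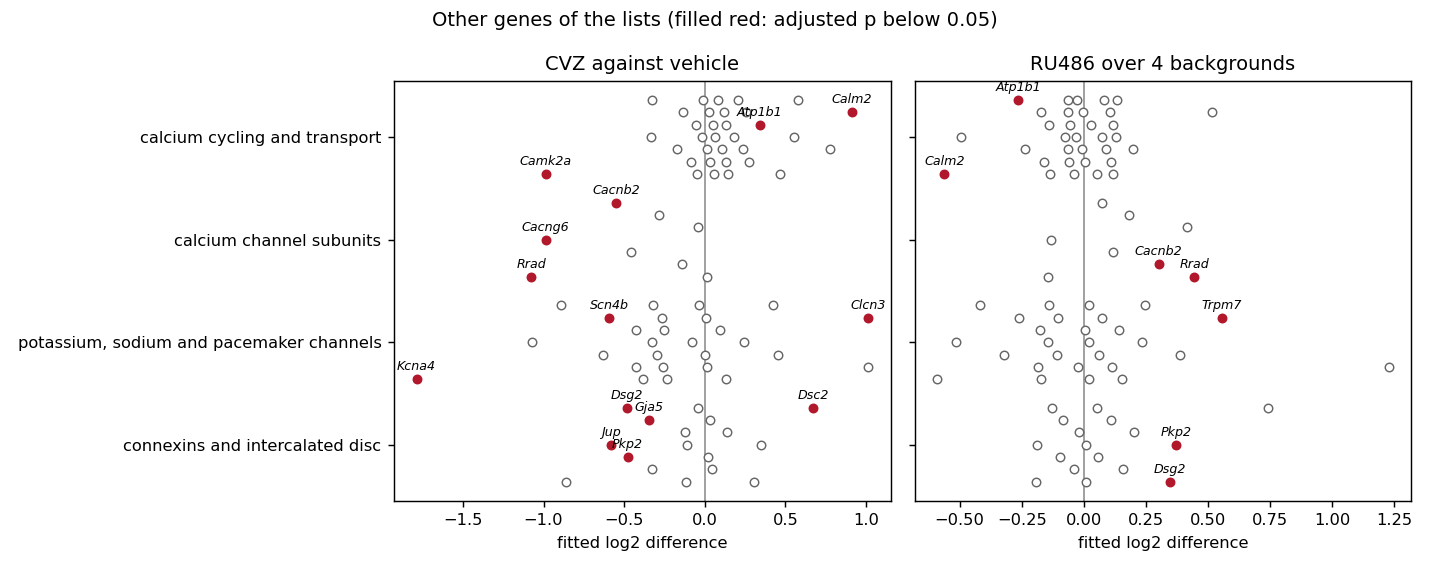
Fitted log2 differences of the other genes in the 4 lists (one row of points each, staggered for legibility) for CVZ against vehicle (left) and RU486 over 4 backgrounds (right), with filled red and named points for an adjusted p below 0.05. Rrad (−1.07) and Kcna4 (−1.79) lie far to the left with CVZ and Calm2 (0.91) and Clcn3 (1.01) to the right, while with RU486 Calm2 lies at −0.56 and Rrad at 0.44.

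The genes most like Gja1 over the 12 arrays, after subtraction of the mean of each experiment's arrays without RU486, were Irf2bpl (r = 0.982), Mafa (0.972), Arhgap24 (0.968) and Fgf18 (0.958), out of 10081 named genes compared. Those most like Atp2a2 were Cox6b1 (0.984) and COX1 (0.976), which encode subunits of cytochrome oxidase, Rpl3 (0.972) and Slc25a3 (0.970), and Atp2a2 correlated at 0.922 with Pln. Those most like Ryr2 were Tsnax (0.957), Clk1 (0.901), Naa38 (0.899) and Actn4 (0.882). These correlations describe arrays that share libraries and scaling.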

How the data were processed

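Expression was measured on 12 Affymetrix rat arrays of 31099 probe sets. The deposited values are intensities, per the submitters' processing notes MAS5 signals. Tested on the file, each array had been divided by its own median, and all values times that median were multiples of 0.1 (tolerance 0.001). Further steps are not given in the sources used here. No depth exists for arrays, so their number limits the precision. Leaving out 57 controls kept 31042 probe sets, of which 20826 had 1 symbol, 436 several and 9780 none in the array annotation, and 20764 matched RefSeq by gene ID. No replicate arrays held identical values.

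Tests used log2 of the value plus 0.0696, the 10th percentile. Probe sets with a mean above the 40th percentile were tested (18625, in 10082 named genes). Differences were fitted with limma 3.58.1 (R 4.3.3) over 8 groups, with the experiment as a block and a mean-variance trend. It had 3 residual and 12.2 prior degrees of freedom, so errors lean on the variance of all probe sets and lone RU486 arrays were assumed to vary like the others. Fitted RU486 comparisons draw on arrays of the first experiment too. The pairing comes from the titles, which give the experiment, and the deviations of arrays from group means correlated within experiments at 0.512 to 0.567. Adjusted p-values are Benjamini-Hochberg over all tested probe sets, 13 comparisons were made, and intervals are 95%. The procedure was tested on simulated data.

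The members and lists were chosen with earlier results of these data known. Named were the 9 members, list genes called with CVZ or with RU486 over 4 backgrounds (at most 6 per list, not all described), genes of highest correlation with 3 members, and genes called in counts of 5 or fewer, chosen after their values were seen. Alternatives were 2 other pseudocounts (1 and 0.0174), no filter, quantile normalization, trimmed-mean scaling (2nd to 98th percentile), no trend and no block. Further ones left out each array of the paired groups or, for the members only, used the other probe sets. RefSeq sequences are of build GRCr8.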

Additional observations from a re-analysis of the deposited data

Results flagged for a closer look

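The dimmer Gja1 probe set had a CVZ response with RU486 that differed from the response without it by log2 1.15 ± 0.18 (limma, adjusted p = 0.00179). CVZ+RU minus RU was −0.13 within the second experiment, against CVZ minus vehicle of −1.16 in that and −1.40 in the first experiment. The brighter Gja1 set gave 0.43 for the same difference and was not called (adjusted p = 0.241). The call of the dimmer set held in 13 of 15 alternative settings and was lost without the block or the mean-variance trend. There was 1 array each for CVZ+RU and RU, so their own spread was not measured.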

How the results depend on the processing

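The number of the 9 genes called moved as follows. With CVZ it was 0 instead of 1 without the trend and without the replicate block, and 1 to 2 when 1 array was left out. For the 3 ligands it was 0 instead of 1 with the smaller pseudocount, no filter, no trend and no replicate block, and 0 to 1 with an array left out. COR against CVZ and ALD against CVZ each gave 0 instead of 1 with no filter, no trend and no replicate block, and 0 to 1 and 0 to 2 with an array left out. RU486 over 4 backgrounds gave 0 instead of 3 with no filter, no trend and no replicate block, 1 under quantile normalization, and 1 to 3 with an array left out. CVZ+RU against CVZ gave 0 instead of 2 with no filter, no trend and no replicate block, 1 under quantile normalization, and 0 to 3 with an array left out. The difference of CVZ responses gave 1 instead of 0 under quantile normalization, and 0 to 1 with an array left out. Second against first experiment gave 2 instead of 6 with no filter (Pln and Slc8a1, both lower). Under quantile normalization it gave 2 (Casq2 and Cacna1c) and under trimmed-mean scaling 2 (Cacna1c and Kcnd3), all of them higher. This comparison gave 0 without the trend and 4 to 6 with an array left out. It could not be fitted without the block. Values that turned round were, for RU486 over 4 backgrounds, Pln at 0.0045 under quantile normalization and 0.26 by its dimmest probe set. For the experiments they were, under quantile normalization, Ryr2 at 0.066, Casq2 at 0.12 (adjusted p = 0.0288) and Slc8a1 at 0.042, and under trimmed-mean scaling Atp2a2 at 0.037, Ryr2 at 0.022, Casq2 at 0.047 and Gja1 at 0.0062. By other probe sets they were Pln at 0.048 and Atp2a2 at 0.36, 0.76 and 0.050 (lowest adjusted p of these Atp2a2 values 0.000216). Of 1915 single values under alternatives, 1798 kept their direction where called and their side of the threshold, 87 lost a call, 17 gained one and 13 turned round. Over all probe sets the CVZ count of 1483 was 646 without the trend and 215 without the replicate block. The cause of these changes was not tested. Signals under the filter level, such as those of Kcna4 with CVZ and with COR, limit the size of a change.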
